A study of Mus musculus with 4 samples.

Results

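The 50 genes described here act in mitosis and in the G2 phase that leads into it. They were taken by symbol from a list, and all 50 were found among the 31053 genes of the matrices, each with unique molecular identifiers (UMIs, 1 per captured transcript) in the cells kept. The cells are KLS cells of mouse bone marrow, which carry c-Kit and Sca-1 but none of the lineage antigens and include the blood stem cells and early progenitors. They were sorted from femurs and tibias of mice of 8 to 12 weeks. The STAT5 KO group carried Vav1-Cre/+ with floxed STAT5ab (fl/fl), and the control group carried Vav1-Cre/+ with intact STAT5ab, so Cre, which the Vav1 promoter drives in blood cells, was present in both groups. The labels speak of 4 mice and do not say whether these were 4 per group, and no mouse can be told from another within a library.

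A cell that divides copies its chromosomes in S phase, and in G2 and mitosis makes cyclin B, CDK1 and the kinases PLK1, Aurora A and Aurora B. These proteins condense the chromosomes, build the spindle and attach it to the kinetochores, and the anaphase-promoting complex then has cyclin B degraded so that the cell can part. Most of the transcripts exist for only part of the cycle, and blood stem cells spend most of their time outside it, so the level of such genes in a mixture of cells moves both with the number of dividing cells and with the transcripts in each. STAT5A and STAT5B carry signals of cytokine receptors such as those for thrombopoietin and interleukin 3.

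Each group is 1 library, so no test was possible. Every interval below is a 95% interval of counting error only, without the differences between mice or preparations. Intervals of sums and ratios also leave out the spread between cells. There were 3747 barcodes with 55138419 UMIs for control and 7511 with 82466835 UMIs for STAT5 KO. Barcodes that were also found in an MSC (stromal) library were left out, and 290 barcodes were present in both KLS libraries. After the filters, 3049 control and 5821 STAT5 KO cells with at least 5000 UMIs remained, with medians of 15282 and 11180 UMIs. This depth minimum left out 42 control and 905 STAT5 KO cells. Stat5a and Stat5b together were at 8.76% of the control level in STAT5 KO, but at 48.3% in the stem gate and 22.0% in the Pf4 gate described next, where 38 and 30 STAT5 KO cells held a Stat5a or Stat5b UMI.

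Lineage gates were set on each cell after thinning to 5000 UMIs. The stem gate asked for a UMI of each of Hlf, Mecom and Procr, genes of blood stem cells, and took 143 control and 110 STAT5 KO cells. The Dntt gate asked for 2 UMIs of the lymphoid gene Dntt and took 790 and 1674 cells, the Pf4 gate for 2 UMIs of the megakaryocyte gene Pf4 and took 76 and 168 cells, and the Mpo gate for 10 UMIs of the neutrophil granule gene Mpo and took 104 and 637 cells. Of the other markers of each lineage, 7 in each list, those highest in their own gate numbered 3 in control and 6 in STAT5 KO for the stem gate, 6 and 7 for the Dntt gate, 7 and 6 for the Pf4 gate and 7 and 7 for the Mpo gate. Levels below are in CPM, counts per 1000000 UMIs. In the stem gate of the control library only 3 of 7 other stem markers were highest. The 8 lymphoid markers there summed to 1041 CPM against 212 CPM in the stem gate of STAT5 KO, and the 5 B and plasma cell markers to 315 against 27.3 CPM. Single genes made most of these differences: Ighm, in the lymphoid list, was at 768 and 19.7 CPM, and Jchain, in the B and plasma cell list, at 278 and 0 CPM.

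Promoters are shown for 5 members whose values differ in direction: Ccnb1 and Ccnb2, which encode the mitotic cyclins B1 and B2, and Aurka (Aurora kinase A) were lower in STAT5 KO in at least 1 gate, while Top2a, the topoisomerase that untangles sister chromosomes, and Cbx5, the heterochromatin protein HP1 alpha, were higher in every gate. Each stretch runs 5′ to 3′ on the gene's strand from 200 bases before the RefSeq transcript start to 30 bases after it, on GRCm38.p6. They lie at chr13:100786457-100786686 (Ccnb1), chr9:70421525-70421754 (Ccnb2), chr2:172370541-172370770 (Aurka), chr11:99024160-99024389 (Top2a) and chr15:103239823-103240052 (Cbx5), all on the minus strand. In the GENCODE M21 annotation of GRCm38 the genes span chr13:100778650-100786570 (Ccnb1, ENSMUSG00000041431), chr9:70407692-70421547 (Ccnb2, ENSMUSG00000032218), chr2:172356190-172370535 (Aurka, ENSMUSG00000027496), chr11:98992943-99024189 (Top2a, ENSMUSG00000020914) and chr15:103191544-103239816 (Cbx5, ENSMUSG00000009575). Capitals mark the cell cycle homology region motif TTTGAA (CHR), its variant TTTAAA and the NF-Y box CCAAT, on either strand.
Ccnb1: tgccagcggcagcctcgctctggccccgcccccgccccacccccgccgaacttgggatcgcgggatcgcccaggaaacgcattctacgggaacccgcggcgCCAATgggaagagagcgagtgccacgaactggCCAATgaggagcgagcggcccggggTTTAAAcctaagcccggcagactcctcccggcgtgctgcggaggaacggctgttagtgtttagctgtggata
Ccnb2: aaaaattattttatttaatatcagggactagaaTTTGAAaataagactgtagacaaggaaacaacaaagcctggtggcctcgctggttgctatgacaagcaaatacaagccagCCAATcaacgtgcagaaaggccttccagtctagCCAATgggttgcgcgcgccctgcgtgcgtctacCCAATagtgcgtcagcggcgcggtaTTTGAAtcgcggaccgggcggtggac
Aurka: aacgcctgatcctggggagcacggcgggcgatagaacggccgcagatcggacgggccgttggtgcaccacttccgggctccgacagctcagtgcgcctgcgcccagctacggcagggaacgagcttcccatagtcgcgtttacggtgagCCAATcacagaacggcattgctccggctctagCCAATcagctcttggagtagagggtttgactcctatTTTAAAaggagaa
Top2a: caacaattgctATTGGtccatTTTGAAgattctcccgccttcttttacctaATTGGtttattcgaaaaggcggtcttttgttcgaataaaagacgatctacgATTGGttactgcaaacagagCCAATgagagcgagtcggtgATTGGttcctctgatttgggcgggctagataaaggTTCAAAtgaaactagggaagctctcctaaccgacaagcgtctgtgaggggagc
Cbx5: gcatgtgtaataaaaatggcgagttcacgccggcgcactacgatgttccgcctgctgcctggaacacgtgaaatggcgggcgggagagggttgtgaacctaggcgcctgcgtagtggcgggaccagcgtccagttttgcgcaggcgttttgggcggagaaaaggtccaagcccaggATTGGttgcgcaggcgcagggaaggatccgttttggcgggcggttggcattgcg

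The Ccnb1 stretch held 2 NF-Y boxes and the variant TTTAAA, the Ccnb2 stretch 3 NF-Y boxes and 2 CHR motifs, and the Top2a stretch 5 NF-Y boxes and 2 CHR motifs. The Cbx5 stretch held 1 NF-Y box and neither TTTGAA nor TTTAAA. Promoters of 300 bases were found for 44 of the 50 members in the RefSeq table. Of these, 31 (70.5%) held TTTGAA against 18.1% of all 27025 promoters of that length, 10 (22.7%) held TTTAAA against 13.2%, and 34 (77.3%) held CCAAT against 37.9%. Among the 12 members above 0 in all 4 gates and the 10 below 0 in 3 gates, both groups chosen after their values were seen, TTTGAA was found in 8 of 11 and 6 of 9 promoters. A match says only that these letters are in the window.

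Over all KLS cells the 50 members were slightly higher in STAT5 KO. They summed to 8355 CPM in the control library (8330 to 8380) and to 9474 CPM in the STAT5 KO library (9452 to 9496), a log2 ratio of 0.18 (0.18 to 0.19). The median of the single log2 ratios, taken with a pseudocount of 1 CPM, was 0.09 for the members and -0.02 for all 13907 genes with at least 20 UMIs, a minimum that all 50 members met here and in each gate. Intervals beside a single gene's log2 ratio are those of the ratio without the pseudocount. A log2 ratio of at least 0.32 in size was used to name a gene as risen or fallen, and is called the fold limit here: 6 members rose and none fell, where 5.87% of all genes were higher and 10.7% lower by that limit. The plot of summed levels by gate shows that the difference was uneven: the Pf4 gate was next to the lowest in control and the highest in STAT5 KO.

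**Figure D1:**
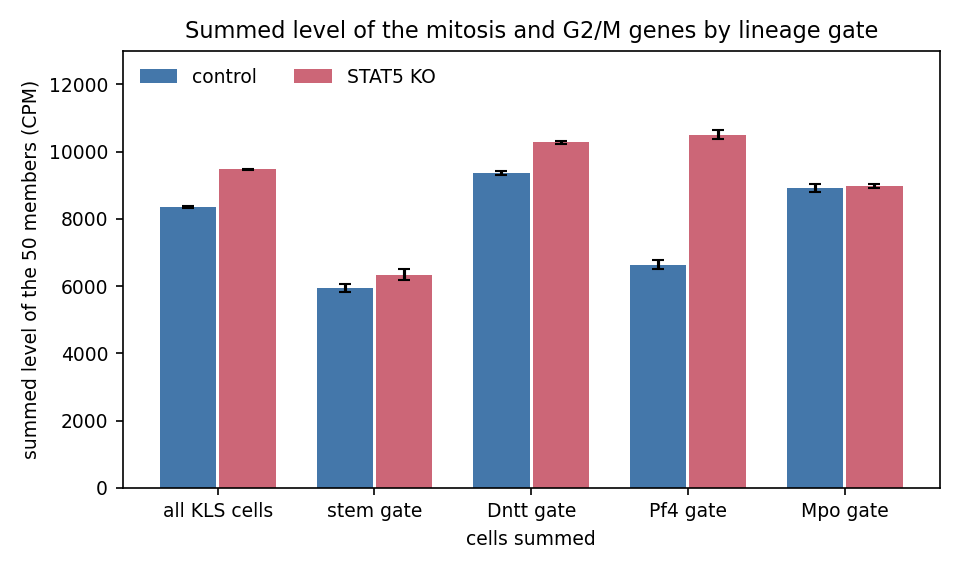
Summed level of the 50 members in CPM (vertical axis) over all KLS cells and in the 4 lineage gates (horizontal axis), control in blue and STAT5 KO in red; error bars are exact Poisson 95% intervals of 1 library each. The Pf4 gate stands at 6630 CPM in control against 10499.6 CPM in STAT5 KO, and the Mpo gate at 8912 and 8985 CPM.

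The stem gate summed to 5936 CPM in control against 6336 CPM in STAT5 KO, the lowest of the 4 gates in both libraries. In the Dntt gate it was 9364 and 10272 CPM, and in the Mpo gate 8912 and 8985 CPM, whose log2 ratio of 0.01 (-0.01 to 0.03) was within counting error. The control order was stem, Pf4, Mpo and Dntt, and the STAT5 KO order was stem, Mpo, Dntt and Pf4. The counting intervals of neighbours did not overlap in either order, but they leave out the spread between cells and so do not settle it. In STAT5 KO the Dntt and Pf4 gates were close, at 10272 and 10499.6 CPM. The stem gate was lowest for 27 single members in control and for 42 in STAT5 KO. The Pf4 gate was highest for 2 members in control and for 35 in STAT5 KO. Such counts were not made over all genes, and the stem and Pf4 gates held few cells. They are therefore not read as a result about the members.

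The share of cells with a UMI, at 5000 UMIs per cell, was higher in STAT5 KO for all 50 members over all KLS cells, with a median of 24.3% in control and 30.2% in STAT5 KO, where the share was higher for 48.1% and lower for 51.4% of all genes tested. It was higher for 41 members and lower for 9 in the stem gate (49% and 49.4% of all genes), for 46 and 4 in the Dntt gate (52.2% and 47.1%), for 49 and 1 in the Pf4 gate (52% and 46.9%), and for 28 and 22 in the Mpo gate (54% and 44.9%). This share counts each cell once, whereas a sum weights cells by their depth. It can also hold free RNA. For comparison, cells of the MSC libraries were taken that held no UMI of Ptprc, the CD45 gene, and fewer than 10 hemoglobin UMIs. They were 230 control and 88 STAT5 KO cells, with medians of 2580 and 1952 UMIs. Thinned to 1000 UMIs, their median share over the members was 0% and 0.568%. In KLS cells at the same depth, whose medians before thinning were 15136 and 10086 UMIs, it was 6.74% and 8.39%. Top2a was found in 1.30% and 1.14% of these MSC cells against 26.9% and 37.2% of KLS cells, and Cbx5 in 6.96% and 7.95% against 13.4% and 18.9%. The MSC libraries are separate from the KLS libraries and came from mice of a younger age range. These values therefore cannot show how much free RNA the KLS cells held.

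Per cell, the members together gave a median of 14 UMIs of 5000 in control and 33 in STAT5 KO, while the 90th percentiles, 88 and 91, were close. The upper ends of the 2 libraries thus lay close together, and the middle of the range differed. In the Dntt gate the medians were 18 and 36 UMIs, in the Pf4 gate 12.5 and 37.5, in the Mpo gate 31.5 and 38, and in the stem gate 7 and 8.

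**Figure D2:**
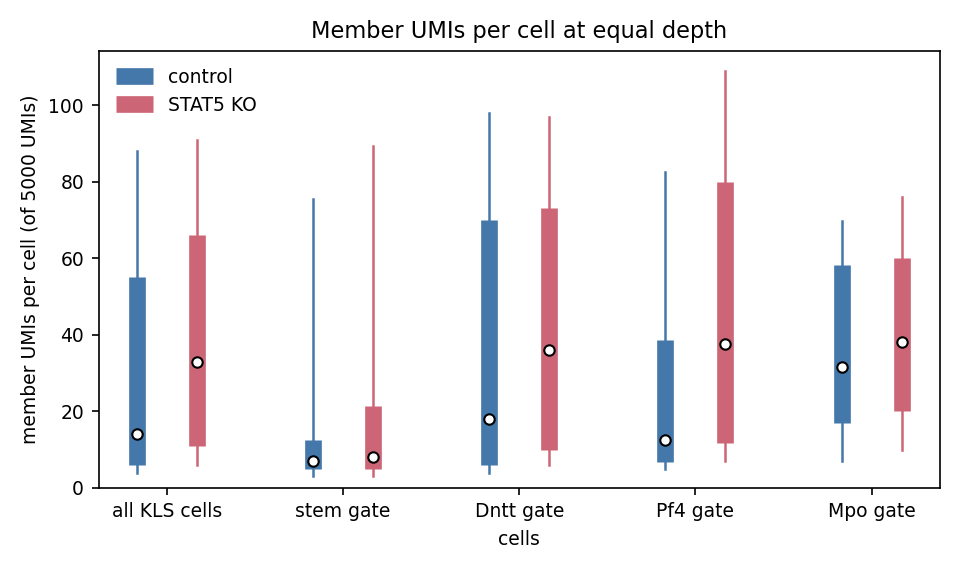
UMIs of the 50 members per cell thinned to 5000 UMIs (vertical axis) in all KLS cells and the 4 gates, control in blue and STAT5 KO in red; circles are medians, thick bars run from the 25th to the 75th percentile and thin lines from the 10th to the 90th. The median over all KLS cells is 14 in control and 33 in STAT5 KO, and the stem gate stays low at 7 and 8.

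To set cells in division apart without using the members, 12 other mitotic genes were counted (Prc1, Kif20a, Kif22, Kif4, Arhgap11a, Aspm, Cep55, Spc25, Mad2l1, Smc4, Pbk and Kif15), called anchor genes here. Cells with at least 3 of their UMIs at 5000 UMIs made up 45.3% of control and 60.5% of STAT5 KO cells, a difference of 15.3 percentage points (13.1 to 17.4). The difference was 11.9 points in the Dntt gate (7.59 to 16.1) and 19 points in the Pf4 gate (4.79 to 32.5). In the stem gate it was 5.10 points (-6.17 to 16.6) and in the Mpo gate 9.71 points (-0.28 to 20.3), both within counting error. This is a range of a count and no cell cycle phase: 15.8% of control and 17.1% of STAT5 KO cells had 2 or 3 anchor UMIs, next to the limit.

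Cells with more than 5% mitochondrial UMIs moved with these results. They were 603 of 3049 control cells (19.8%) and 73 of 5821 STAT5 KO cells, and 39.9% and 0.91% in the stem gate. In control such cells held a mean of 12.4 member UMIs of 5000, against 37.4 in the others, whereas in STAT5 KO they held 49.2 against 41.1. Without them, and with at least 1000 genes per cell, the summed log2 ratio over all KLS cells was 0.07, only Cbx5 rose, and the difference in anchor cells was 7.81 points. The direction turned in the stem gate, to a log2 ratio of -0.28. With the same filter the summed log2 ratio was 0.03 in the Dntt gate, 0.60 in the Pf4 gate and -0.05 in the Mpo gate. How many of all genes passed the fold limit with this filter was not counted.

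The cyclins and kinases that start mitosis lay on both sides of 0. Ccnb2 was at 150 CPM in control against 138 CPM in STAT5 KO over all KLS cells, and Ccnb1 at 115 and 107 CPM, log2 ratios of -0.12 (-0.17 to -0.08) and -0.10 (-0.15 to -0.05). Aurka, which matures the centrosomes, was at 55.8 and 51.0 CPM, a log2 ratio of -0.13. Plk1, the kinase that activates CDK1 and drives spindle assembly, was at 53.2 and 50.8 CPM, with an interval that reached 0.01. These 4 lay among the 6 lowest of the 50, yet none fell past the limit, and their mean CPM of single cells gave log2 ratios above 0, from 0.04 for Aurka to 0.12 for Plk1. Cks2, a small subunit bound to CDK1, went from 351 to 425 CPM and Cks1b from 226 to 243 CPM, so that both were above the control value.

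The 4 ubiquitin ligase genes lay close to 0 over all KLS cells, with a median log2 ratio of 0.05. Ube2c, the conjugating enzyme of the anaphase-promoting complex, was at 296 CPM in control against 291 CPM in STAT5 KO, and Cdc20, its activator, at 135 and 132 CPM.

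The 13 centromere, kinetochore and checkpoint genes had log2 ratios above 0 over all KLS cells as processed here, although the intervals of Ttk, Cenpa, Ndc80, Nuf2 and Kif2c held 0, and 2 genes rose. Rangap1, which makes the GTPase Ran hydrolyse its GTP at kinetochores and nuclear pores, went from 101 to 133 CPM (log2 ratio 0.40, 0.35 to 0.45). Bub1, a checkpoint kinase, went from 37.4 to 49.2 CPM (0.38, 0.31 to 0.47). Birc5, or survivin, was at 203 and 223 CPM, and Hjurp, the chaperone of the centromeric histone CENP-A, at 206 and 212 CPM, both under the fold limit. The remaining members of the group lay between 0.01 and 0.31.

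Of the 11 spindle genes none passed the fold limit over all KLS cells. The lowest were Gtse1 (13.8 and 12.6 CPM, log2 ratio -0.13, with an interval up to 0.01) and Psrc1 (37.6 and 34.7 CPM, -0.11, -0.20 to -0.03), both of which encode microtubule-binding proteins. Tubb4b, a beta tubulin, was at 592 and 603 CPM. Of the 5 cytokinesis genes Kif20b, a kinesin of late mitosis, rose from 87.9 to 118 CPM (0.42, 0.37 to 0.47), while Kif23, a kinesin of the central spindle, was at 103 and 103 CPM.

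The 7 genes of chromosomes and the nuclear envelope had the highest median of the 6 groups, 0.25. Cbx5 rose from 166 to 226 CPM (0.44, 0.41 to 0.49). Mki67, which coats mitotic chromosomes and is the source of the Ki-67 stain, rose from 307 to 412 CPM (0.42, 0.39 to 0.45), and Top2a from 535 to 704 CPM (0.40, 0.38 to 0.42). These 3 had intervals well apart from 0. Hmgb2, a chromatin protein of dividing cells, went from 1760 to 2097 CPM (0.25, 0.24 to 0.26) and Anp32e, a chaperone that removes the histone H2A.Z, from 228 to 264 CPM, both under the fold limit. Lbr, the lamin B receptor, was at 162 and 168 CPM. Levels are UMIs of transcript ends, not divided by length, so the order of the levels of different genes is not read here.

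**Figure D3:**
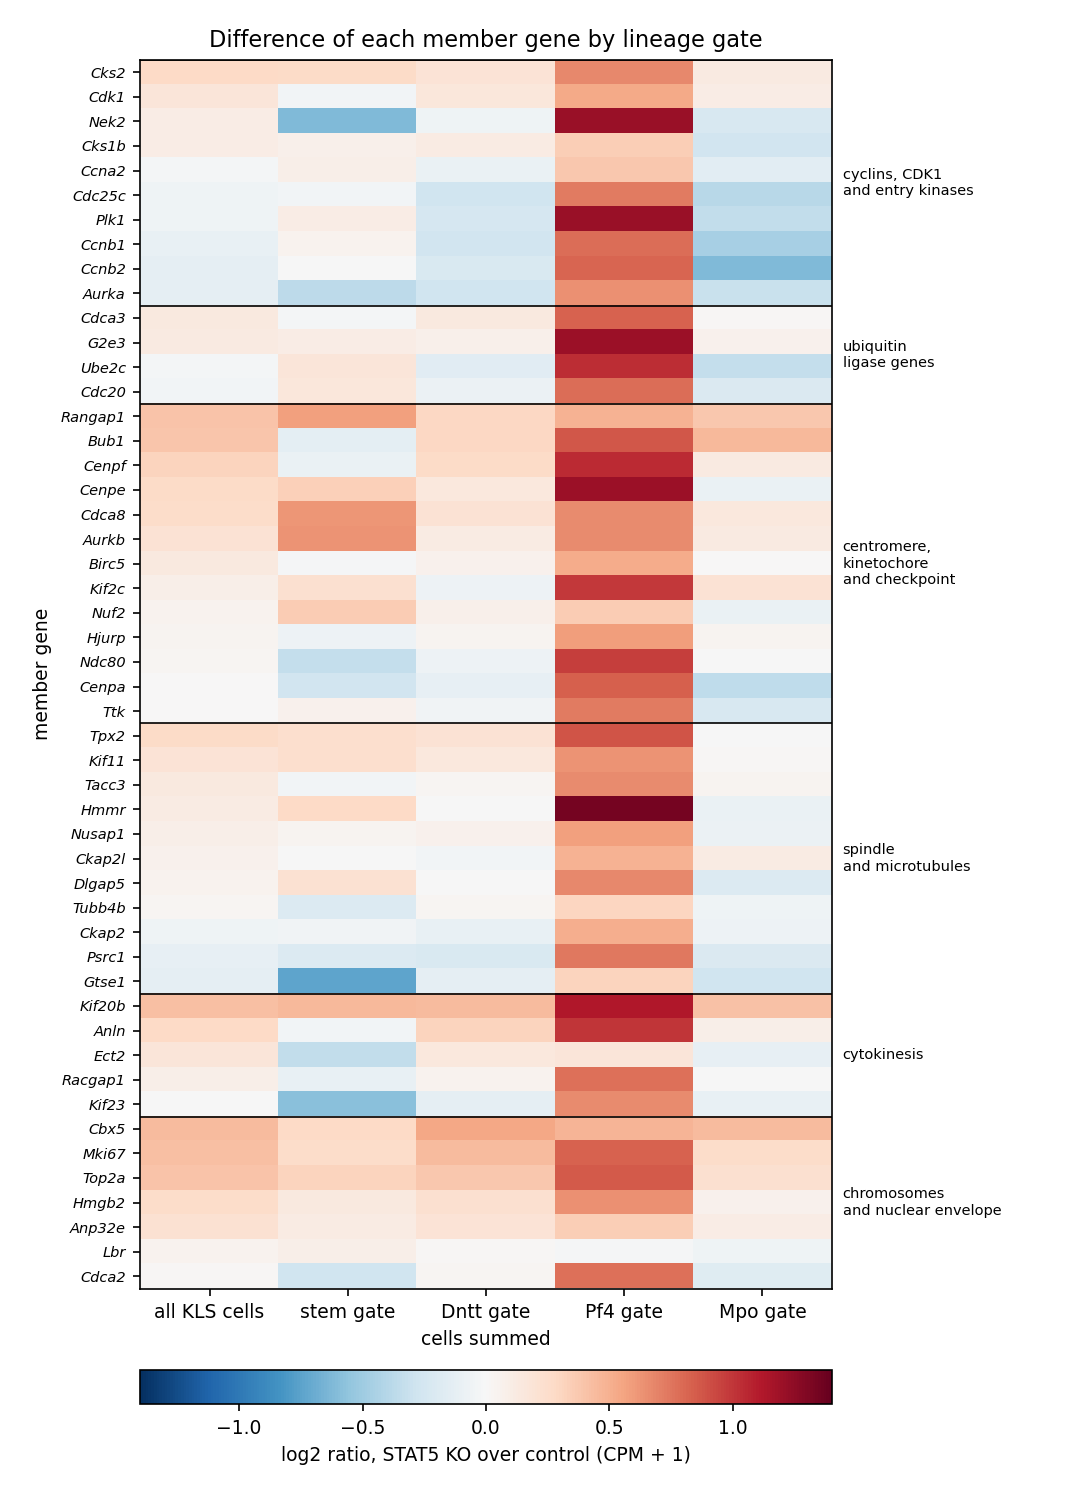
Log2 ratio of STAT5 KO over control (colour, CPM plus 1) for each of the 50 members (rows, grouped by role) over all KLS cells and in the 4 lineage gates (columns). The Pf4 column is red for 49 members, up to 1.34 for Hmmr, while the Mpo column runs from -0.61 for Ccnb2 to 0.46 for Bub1.

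In the Pf4 gate nearly all members rose together. The median log2 ratio was 0.70, against 0.04 for all 9702 genes tested, and the summed level was 1.58-fold higher (log2 ratio 0.66, 0.63 to 0.70). By the fold limit, 46 members rose and none fell, where 19.9% of all genes were higher and 15.8% lower. All 10 cyclin and kinase genes, all 4 ubiquitin ligase genes, all 13 kinetochore genes, 9 of 11 spindle genes, 4 of 5 cytokinesis genes and 6 of 7 chromosome genes rose.

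The highest in the Pf4 gate was Hmmr, a spindle pole protein, which went from 52.7 to 135 CPM (1.34, 0.98 to 1.74). Nek2, a centrosome kinase, went from 17.3 to 41.4 CPM (1.21, 0.59 to 1.97) and Plk1 from 26.7 to 63.0 CPM (1.21, 0.70 to 1.80). Such values rest on few molecules: Nek2 had 24 UMIs in control and 90 in STAT5 KO. Ccnb1 rose there from 86.7 to 149 CPM, Ccnb2 from 108 to 192 CPM, Ube2c from 178 to 366 CPM and Mki67 from 290 to 517 CPM. Lbr (163 and 161 CPM), Ect2, which starts the cleavage furrow (19.5 and 22.1 CPM), and Tubb4b (480 and 591 CPM) were the lowest, with Gtse1 the other member just under the fold limit.

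The share of Pf4 gate cells with a UMI had medians over the members of 19.7% in control and 37.8% in STAT5 KO. In the same gate the 8 megakaryocyte markers went from 2530 to 3852 CPM, with 7 of 8 higher and none at 0. This sum holds Pf4, the gene that sets the gate, which itself went from 1492 to 2446 CPM. The 8 erythroid markers went from 978 to 647 CPM with 3 of 8 higher, and Car2 alone went from 872 to 541 CPM. The S phase list did not go up with the members there. Of its 39 genes 3 were higher and 6 lower by the fold limit (19.9% and 15.8% of all genes), with a median of -0.04. The 2 libraries' Pf4 gates held only 76 and 168 cells, and with lower gate minimums the summed log2 ratio was 0.36 and 25 members rose. For that setting the share of all genes past the limit was not counted. Without the STAT5 KO cells that held a Stat5 UMI the summed log2 ratio was 0.71. Whether the markers or the cell mix had a part in the result was not tested.

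In the Dntt gate 4 members rose and none fell, where 9.45% of all 12125 genes were higher and 11.6% lower. Cbx5 went from 152 to 221 CPM (0.54, 0.47 to 0.62), Kif20b from 88.4 to 121 CPM (0.45), Mki67 from 323 to 439 CPM (0.44) and Top2a from 606 to 789 CPM (0.38). The lowest were Aurka (67.8 and 55.6 CPM, -0.28, -0.41 to -0.16), Cdc25c, the phosphatase that switches CDK1 on (25 and 20.5 CPM, -0.28), and Ccnb1 (147 and 123 CPM, -0.26, -0.35 to -0.18). The same 3 chromosome genes and the B cyclins thus lay at opposite ends in this gate as over all KLS cells, but this gate gives 25.9% of the control and 28.8% of the STAT5 KO cells, so the 2 are not independent.

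In the Mpo gate 4 members rose and 6 fell, where 16.6% of all 10915 genes were higher and 13% lower, so neither share of the 50 exceeded that of all genes. These counts moved with the processing: 11 rose and none fell at 8000 UMIs, 16 rose and 2 fell with higher gate minimums, and 3 rose and 9 fell with the filter on mitochondrial UMIs. At 8000 UMIs the Mpo minimum was raised with the depth. How many of all genes passed the fold limit in these settings was not counted. Ccnb2 fell from 164 to 107 CPM (-0.61, -0.78 to -0.46), Ccnb1 from 138 to 99.5 CPM (-0.46, -0.64 to -0.29) and Cdc25c went from 21.4 to 16.1 CPM (-0.39, -0.85 to 0.06). Cenpa, the centromeric histone, fell from 217 to 169 CPM, Plk1 from 61.0 to 47.7 CPM and Ube2c from 334 to 264 CPM. Bub1 rose from 39.3 to 54.3 CPM (0.46), Cbx5 from 160 to 218 CPM (0.45), Kif20b from 86.6 to 115 CPM (0.41) and Rangap1 from 111 to 144 CPM (0.38). The 8 myeloid markers, among them Mpo, the gene that sets the gate, were lower here in STAT5 KO, 7902 against 9286 CPM, all 8 of them.

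In the stem gate 6 members rose and 6 fell by the fold limit, where 18.4% of all 9522 genes were higher and 20.1% lower, so neither share of the 50 exceeded that of all genes. These counts turned with the processing: 1 rose and 28 fell with the filter on mitochondrial UMIs, and 32 rose and none fell at 8000 UMIs. At 8000 UMIs the stem gate still asked for a UMI of each of its genes. The share of all genes past the limit was not counted in these settings. Without the STAT5 KO cells that held a Stat5 UMI the summed log2 ratio was 0.28, against 0.09 (0.05 to 0.14) with them. Of the 50 ratios, 40 had intervals that held 0. Aurkb, the kinase of the chromosomal passenger complex, went from 39.3 to 61.2 CPM (0.63, 0.09 to 1.19), its partner Cdca8 from 94.0 to 144 CPM (0.61, 0.27 to 0.97) and Rangap1 from 59.2 to 88.5 CPM (0.57, 0.13 to 1.03). Kif23 fell from 92.0 to 61.2 CPM (-0.58, -1.06 to -0.13). The other low members, Gtse1 (18 and 6 UMIs) and Nek2 (32 and 12 UMIs), had intervals that held 0.

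Across gates, 12 members lay above 0 in all 4, as did 19.4% of the 9114 genes tested in every gate: Cks2, G2e3, Rangap1, Aurkb, Cdca8, Kif11, Kif20b, Mki67, Top2a, Hmgb2, Anp32e and Cbx5. None lay below 0 in all 4, where 14.3% of those genes did. Another 10 lay below 0 in the stem, Dntt and Mpo gates and above 0 in the Pf4 gate, as did 6.56% of those genes: Ccnb2, Cdc25c, Aurka, Nek2, Cenpa, Ndc80, Ckap2, Psrc1, Gtse1 and Kif23. These are signs only, and in the stem gate 40 of the 50 intervals held 0. Over the 17 alternatives run per gate, 44 members kept their sign throughout in the Pf4 gate, 26 in the Dntt gate, 20 in the Mpo gate and 4 in the stem gate.

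The members were next compared within the cells that had at least 3 anchor UMIs, 1380 in control and 3523 in STAT5 KO. There they summed to 12441 CPM in control against 12184 CPM in STAT5 KO, a log2 ratio of -0.03 (-0.04 to -0.02), so the sum was not higher in STAT5 KO among them. For single genes, the intervals of 10 lay above 0, those of 31 below 0 and those of 9 held 0, where 23.9% of all genes tested had intervals above 0 and 24.2% below 0. By the fold limit, 1 member rose and 5 fell, where 5.99% of all 13228 genes were higher and 9.45% lower, so these counts were close to the background. The median log2 ratio of the members was lower, at -0.12 against -0.01 for all genes tested.

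Cbx5 rose in these cells from 195 to 247 CPM (0.34, 0.30 to 0.39). Rangap1 went from 135 to 158 CPM (0.23), Kif20b from 133 to 154 CPM (0.21), Mki67 from 488 to 554 CPM (0.18) and Top2a from 822 to 922 CPM (0.17). At the other end Ccnb2 fell from 235 to 184 CPM (-0.35, -0.40 to -0.31), Ccnb1 from 183 to 144 CPM (-0.35, -0.40 to -0.29) and Aurka from 88.4 to 68.8 CPM (-0.36, -0.44 to -0.29). Psrc1 fell from 57.2 to 44.6 CPM and Gtse1 from 21.4 to 16.5 CPM, while Plk1 went from 86.2 to 69.6 CPM (-0.31, under the fold limit). In 7 other ways of processing, 48 of the 50 members kept their sign, all but Aurkb and Kif11.

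**Figure D4:**
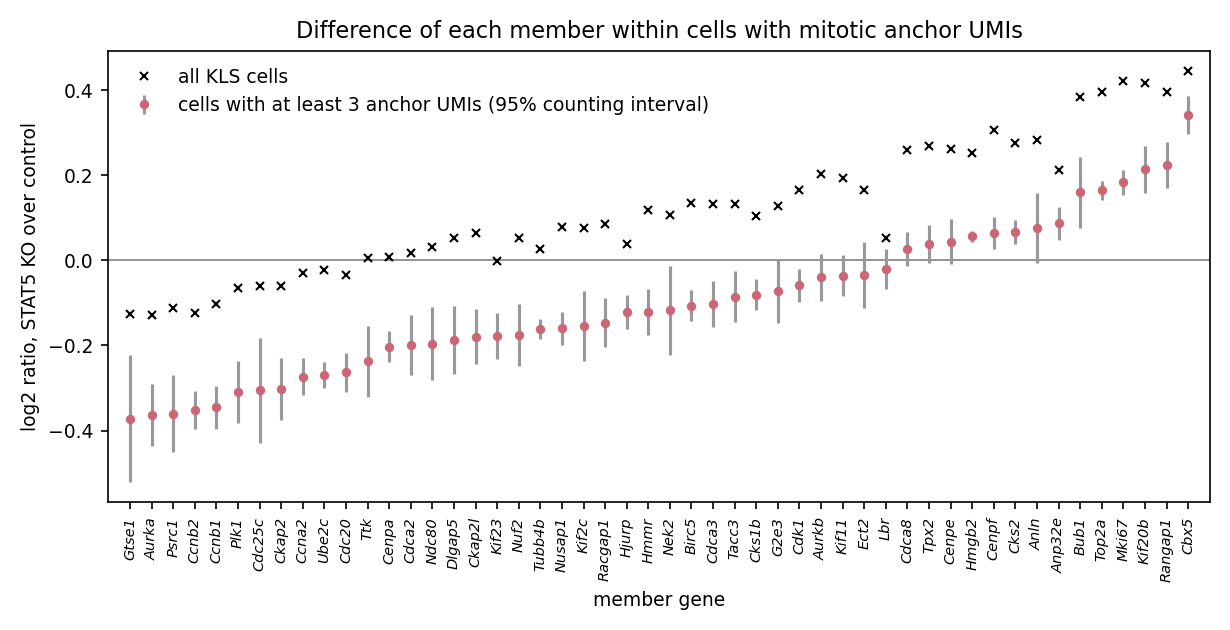
Log2 ratio of STAT5 KO over control (vertical axis) for each member (horizontal axis, ordered by value) within cells that had at least 3 anchor UMIs (red points with 95% counting intervals) and over all KLS cells (black crosses). The points run from -0.37 for Gtse1 to 0.34 for Cbx5, and 36 of 50 lie below 0.

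By gate, the sum within anchor cells was at 13664 and 13280 CPM in the Dntt gate (log2 ratio -0.04), at 11355 and 10311 CPM in the Mpo gate (-0.14, -0.16 to -0.12) and at 12997 and 14572 CPM in the stem gate (0.17), the last from 33 and 31 cells. In the Pf4 gate it was higher in STAT5 KO even so, 11095 against 13622 CPM (0.30, 0.26 to 0.33, from 34 and 107 cells). In its cells with no anchor UMI, 17 and 20 in number, the sum was 1422 and 2324 CPM (0.71, 0.50 to 0.92). As processed here, the Pf4 difference was seen in the share of anchor cells and in both of these sums. The sum in cells with none rests on few cells, and the intervals of both sums leave out the spread between cells. Anchor UMIs were counted after thinning but the sums are at full depth, so cells with none can still hold anchor UMIs. Whether these sums by gate hold under other processing was not tested. In cells with no anchor UMI the sum over all KLS cells was 1615 and 1872 CPM (0.21, 0.18 to 0.25).

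How closely each member followed the anchor genes differed widely. The level in anchor cells over that in cells with no anchor UMI had a median of 16.6-fold in control and 11.4-fold in STAT5 KO. Nusap1, a spindle protein, stood at 85.0-fold and 58.2-fold and Hmmr at 70.7-fold and 84.8-fold. Cbx5 (1.86-fold and 1.68-fold) and Lbr (1.69-fold and 1.53-fold) differed least between the cells. Mki67 stood at 31.7-fold and 28.2-fold and Top2a at 14.3-fold and 10.9-fold. Anchor cells were also deeper, with medians of 20126.5 and 13234 UMIs against 9452 and 7335 in cells with none.

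The direction of the summed level under other processing depended on the gate, as the plot of alternatives shows. In the Pf4 gate and over all KLS cells it stayed above 0 in all 14 and all 13 alternatives run. When each cell counted equally the difference over all KLS cells was larger, with a log2 ratio of 0.33 for the mean of single cells. In the stem gate it ran from -0.28 to 0.46, and in the Mpo gate from -0.05 to 0.23.

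**Figure D5:**
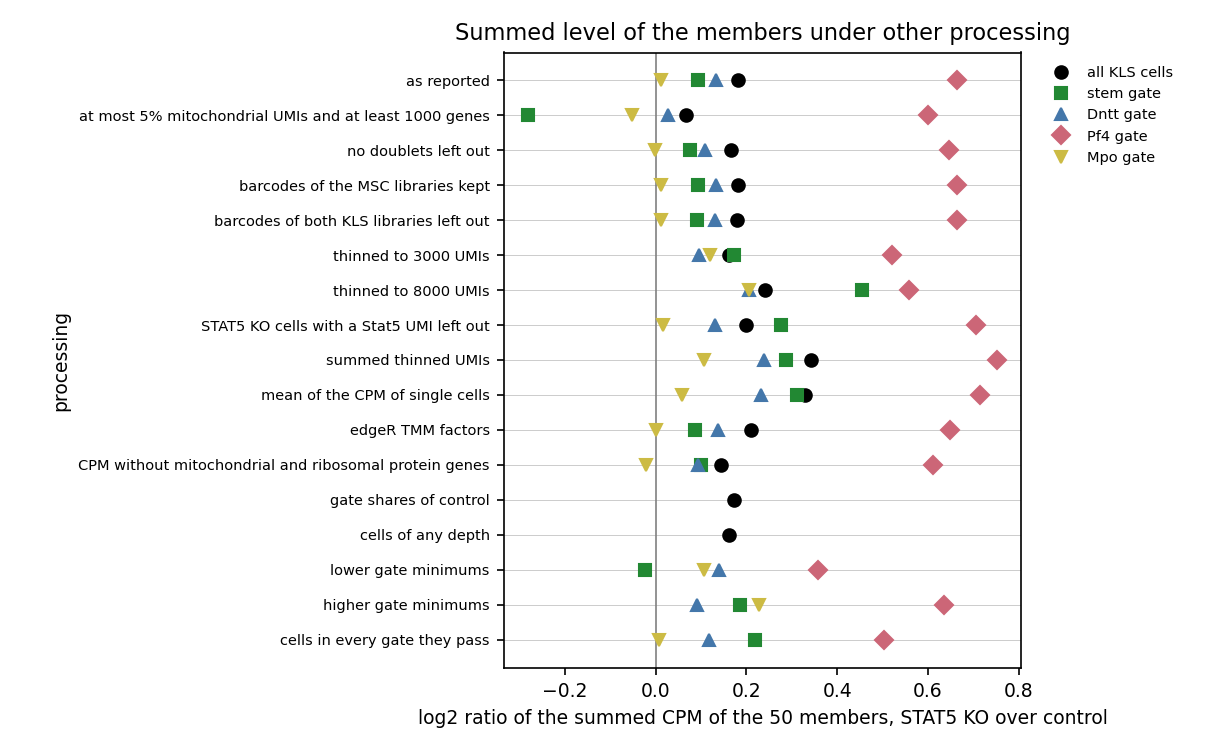
Log2 ratio of the summed CPM of the 50 members, STAT5 KO over control (horizontal axis), as reported and under each other processing (vertical axis), for all KLS cells and the 4 gates (symbols). The Pf4 gate lies between 0.36 and 0.75 throughout, while the stem gate crosses 0.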

How the data were processed

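Droplet single-cell RNA sequencing (10x 3′ chemistry, version 3) was used on sorted KLS cells, 1 library per genotype, with 2 MSC libraries used for shared barcodes and a comparison of shares. The deposited matrices hold raw UMI counts per gene and barcode, made by the authors with Cell Ranger on GRCm38/mm10 per the submitters' processing notes, and with software version 3.1.0 per the file headers. The strand rule of counting is not given in the sources used here, so overlapping and antisense genes cannot be told apart. The smallest total was 500 UMIs per barcode. No value column lacked a sample (0).

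KLS barcodes found in an MSC library were left out (382 control, 284 STAT5 KO). A minimum of 200 genes and a maximum of 10% mitochondrial UMIs per cell were set, which 169 and 67 barcodes failed, and the highest Scrublet scores were left out as doublets at 0.8% of barcodes per 1000 barcodes (105 and 434). Sums use cells with at least 5000 UMIs at full depth. Shares and gates use cells thinned to 5000 UMIs (seed 0). Intervals are exact Poisson for sums, exact conditional binomial for ratios and Clopper-Pearson for shares, at 95%, and UMIs remove amplification copies but not differences between mice. Intervals of a difference of 2 shares cover counting error too. Scripts were tested on simulated data.

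The members, gene lists and rules were chosen with earlier results of these data known. Named in full were the 10 members highest in CPM, the 6 highest and 6 lowest log2 ratios over all KLS cells, and the 3 highest and 3 lowest per gate, with at least 20 UMIs over both libraries. Alternatives changed the cell filter, doublets, depth, gates, summing, scaling and pseudocount. Thinning to another depth also moved the UMI minimum of anchor cells and of some gates. The rule of the stem gate, a UMI of each of its genes, was not moved with the depth, so its strictness differed between depths. Alternatives with cells of any depth, thinning to 1000 UMIs, and all within anchor cells were chosen after seeing the data. Tools were Python 3.11.15, numpy 2.4.6, scipy 1.17.1, pandas 2.3.3, scanpy 1.11.5, matplotlib 3.10.9, R 4.3.3 and edgeR 4.0.16 (TMM factors only).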

Additional observations from a re-analysis of the deposited data

Results flagged for a closer look

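For 6 members the difference had opposite directions in different gates, past a log2 ratio of 0.32 in each and with counting intervals that did not hold 0, and this difference between gates was not tested, since each gate is 1 library per group. Between the Pf4 gate and the Mpo gate the log2 ratios were 0.78 and -0.46 for Ccnb1, 0.82 and -0.61 for Ccnb2, and 1.21 and -0.35 for Plk1. Ube2c stood at 1.03 and -0.34 in the same gates, and Cenpa at 0.83 and -0.36. Kif23 stood at 0.67 in the Pf4 gate and at -0.58 in the stem gate. With other processing the Mpo gate value reached 0.31 for Plk1 and 0.03 for Ube2c, both at higher gate minimums, and the stem gate value of Kif23 was 0.23 at 8000 UMIs.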

How the results depend on the processing

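No paired analysis was possible because each group is 1 library, and for the same reason no library was left out. The cause of each move below was not tested. Counts of members under other processing stand alone, since the share of all genes past the limit was counted only for the processing as reported. Values are log2 ratios of the sum, then of the median member, unless named otherwise.

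Over all KLS cells (0.18 and 0.09) they were 0.066 and -0.025 with at most 5% mitochondrial UMIs and at least 1000 genes, 0.17 and 0.075 with no doublets left out, 0.16 and 0.076 at 3000 UMIs, and 0.24 and 0.15 at 8000 UMIs. They were 0.20 and 0.11 without STAT5 KO cells holding a Stat5 UMI, 0.34 and 0.27 from thinned UMIs, 0.33 and 0.24 as the mean of single cells, 0.21 and 0.12 with TMM scaling, 0.14 and 0.057 without mitochondrial and ribosomal genes, 0.17 and 0.081 at the gate shares of control, and 0.16 and 0.075 with cells of any depth; the median was 0.079 with a pseudocount of 10 CPM. The 6 members that rose became 1 under the strict filter, 12 at 8000 UMIs and 16 from thinned UMIs or single-cell means. The difference in anchor cells (15.3 points) was 7.81 under the strict filter, 12.2 at 3000, 20.2 at 8000 and 9.85 at 1000 UMIs. The anchor minimum was lowest at 1000 UMIs and highest at 8000 UMIs, so these are not shares at the same limit.

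In the stem gate (0.09 and 0.05) they were -0.28 and -0.37 under the strict filter, 0.17 and 0.12 at 3000 UMIs, 0.46 and 0.44 at 8000 UMIs, -0.024 and -0.073 with lower gate minimums, 0.19 and 0.15 with higher ones, and 0.22 and 0.17 with cells counted in every gate they met. Without cells holding a Stat5 UMI they were 0.28 and 0.25, from thinned UMIs 0.29 and 0.21, and as single-cell means 0.31 and 0.30. The anchor difference was -8.77 points under the strict filter and 24.4 at 8000 UMIs. Nek2 was at 0.076, Gtse1 at 0.43 and Kif23 at 0.23 at 8000 UMIs, and Rangap1 at -0.30 at 3000 UMIs.

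In the Dntt gate (0.13 and 0.04) they were 0.027 and -0.060 under the strict filter, 0.11 and 0.015 with doublets left in, 0.094 and 0.020 at 3000 UMIs, 0.20 and 0.13 at 8000 UMIs, 0.091 and -0.0055 with higher minimums, 0.12 and 0.023 in every gate met, 0.24 and 0.16 from thinned UMIs, 0.23 and 0.15 as single-cell means, and 0.094 and 0.0045 without mitochondrial and ribosomal genes. The anchor difference was 5.83 points under the strict filter and 17.4 at 8000 UMIs.

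In the Pf4 gate (0.66 and 0.70) they were 0.60 and 0.63 under the strict filter, 0.52 and 0.55 at 3000 UMIs, 0.56 and 0.56 at 8000 UMIs, 0.36 and 0.32 with lower minimums, 0.50 and 0.51 in every gate met, 0.71 and 0.75 without Stat5 UMI cells, 0.75 and 0.84 from thinned UMIs, 0.71 and 0.75 as single-cell means, and 0.61 and 0.65 without mitochondrial and ribosomal genes; the median was 0.61 with a pseudocount of 10 CPM.

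In the Mpo gate (0.01 and -0.03) they were -0.053 and -0.10 under the strict filter, 0.12 and 0.088 at 3000 UMIs, 0.21 and 0.19 at 8000 UMIs, 0.11 and 0.046 with lower minimums, 0.23 and 0.22 with higher ones, 0.11 and 0.0020 from thinned UMIs, 0.058 and 0.013 as single-cell means, and -0.022 and -0.066 without mitochondrial and ribosomal genes; the median was -0.072 in every gate met.

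In the stem and Pf4 gates, which hold few cells, Gtse1 rests on as few as 6 and 13 UMIs in a library. At 8000 UMIs 16.3% of control and 37.1% of STAT5 KO cells were left out.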

Other observations

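The 58 other mitotic genes listed, among them the 12 anchor genes, had a median log2 ratio of 0.11 over all KLS cells, with 5 risen and 1 fallen by a log2 ratio of at least 0.32 (5.87% and 10.7% of all genes). Knl1, a kinetochore scaffold, rose from 77.5 to 105 CPM and Kif15, a spindle kinesin, from 82.9 to 111 CPM, while Kif18b, a kinesin that shortens microtubules, fell from 30.5 to 20.6 CPM. In the Pf4 gate their median was 0.54, with 41 risen and 1 fallen (19.9% and 15.8% of all genes): Spag5, a spindle protein, rose from 24.6 to 66.6 CPM, and the gene that fell was Pttg1, or securin. In the Mpo gate 3 rose and 7 fell (16.6% and 13% of all genes), in the Dntt gate 5 and 1 (9.45% and 11.6%), and in the stem gate 10 and 8 (18.4% and 20.1%), so none of these shares exceeded that of all genes.

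The 39 S phase genes had a median of 0.12 over all KLS cells, with 9 risen and none fallen (5.87% and 10.7% of all genes). Pola1, a subunit of DNA polymerase alpha, rose from 56.5 to 77.2 CPM. In the Mpo gate 13 rose and none fell (16.6% and 13% of all genes), with a median of 0.14, where the mitotic members had a median of -0.03. In the Pf4 gate the S phase sum was 4391 CPM in control against 4180 CPM in STAT5 KO, and Ccne1, cyclin E1, fell from 20.2 to 9.19 CPM. These genes were listed with earlier results of these data known, and their differences between gates were not tested.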
